A study of Rattus norvegicus with 12 samples.

Results

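The copper exporter Atp7a, the copper importer Slc31a1, the copper chaperone Atox1 and the metallothionein Mt2A were followed in rat jejunal mucosa of a low Fe group and a high Fe group. All probe sets of the Affymetrix rat arrays 230A and 230B that the platform annotation assigns to 1 of these 4 genes alone were taken. They are 4 of 13810 genes that a probe set names alone, and hold 8 of 31142 probe sets: 3 for Atp7a, 3 for Slc31a1, 1 for Atox1 and 1 for Mt2A, with 6 on 230A and 2 on 230B. The low Fe group and the high Fe group had 3 samples each. The samples are scrapings of the mucosa of the jejunum, the middle stretch of the small intestine, and the labels place all of them at week 12. The series is tagged with iron deficiency and anemia. The labels do not give the strain, sex or diet, whether week 12 is an age or a time on a diet, or whether a numbered sample is 1 animal or a pool. The p-values thus reflect variation among these samples alone, part or all of which could be technical.

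Copper enters enterocytes through Slc31a1, also called Ctr1, a copper channel of the plasma membrane and of internal vesicles. Atox1 binds cuprous copper in the cytosol and hands it to Atp7a, a P-type ATPase that loads copper onto enzymes in the Golgi and moves to the basolateral side to pump copper towards the blood. Loss of Atp7a causes Menkes disease in humans, in which copper stays trapped in the gut wall. Metallothioneins such as Mt2A are small cysteine-rich proteins that hold zinc and copper, and their genes are switched on by the zinc sensor Mtf1, which binds metal response elements in their promoters. Copper and iron absorption are linked in the gut, since the iron oxidase hephaestin is a copper enzyme.

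The promoter window listed for Mt2A is shown with that listed for Slc31a1. This pair was chosen because the Mt2A signal was higher in each low Fe sample, without passing adjustment, and the Slc31a1 signal was not. The sequences are the 250 bases before the start that a RefSeq promoter table on GRCr8 uses for each gene, written 5′ to 3′ on the gene's strand. That start is the annotated gene start for Mt2A and lies 266 bases inside the annotated gene for Slc31a1, 66 for Atox1 and 43885 for Atp7a. The windows of Slc31a1 and Atp7a thus lie wholly inside the annotated genes, so the windows do not cover like regions. That of Atp7a starts far inside the gene and is not printed, although the signal of an Atp7a probe set was also higher in each low Fe sample. The window of Mt2A lies at chr19:10838709-10838958 on the minus strand and that of Slc31a1 at chr5:80830590-80830839 on the plus strand. Capitals mark matches to the core of the metal response element, searched as TGCACNC and TGCGCNC on both strands, where N is any base, so that GTGTGCA is a match on the opposite strand.
Mt2A: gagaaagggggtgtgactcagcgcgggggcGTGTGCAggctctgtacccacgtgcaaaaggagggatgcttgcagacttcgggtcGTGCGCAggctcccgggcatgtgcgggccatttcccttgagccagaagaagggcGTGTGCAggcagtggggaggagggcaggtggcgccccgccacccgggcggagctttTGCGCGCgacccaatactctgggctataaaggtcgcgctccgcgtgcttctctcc
Slc31a1: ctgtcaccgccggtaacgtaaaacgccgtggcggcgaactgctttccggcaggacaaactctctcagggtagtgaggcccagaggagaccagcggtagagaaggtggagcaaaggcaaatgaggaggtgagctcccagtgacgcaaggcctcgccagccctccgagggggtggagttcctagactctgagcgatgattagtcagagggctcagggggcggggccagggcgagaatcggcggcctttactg

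The Mt2A window held 4 such cores, 2 of each form, and the Slc31a1 and Atox1 windows held 0. Of the 33469 promoter windows in the table, 10.3% held TGCACNC, 11.8% held TGCGCNC, and 0.266% held 4 or more cores of either form. G and C made up 66.0% of the Mt2A window, 62.0% of that of Slc31a1 and 62.8% of that of Atox1, against 51.2% in the median window. The window listed for Atp7a held 0 cores and 37.6% G and C. The hypoxia response core ACGTG was found in the Mt2A window only, on both strands of 1 palindrome (16.6% of all windows hold it), and so was the antioxidant response core TGACNNNGC, in 1 place (10.1% of windows). The GC box GGGCGG, present in 30.5% of windows, was found 4 times in the Atox1 window, once each in those of Slc31a1 and Mt2A, and 0 times in that of Atp7a. These matches are descriptions of the letters in the windows and not binding sites.

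The signals are linear intensities that the authors had scaled to an equal mean on all arrays of a type. The level of 1 probe set is not compared with that of another. The labels were checked on 3 other genes: the brush border ferric reductase Cybrd1, the iron transporter Slc11a2 and the transferrin receptor Tfrc had a higher signal in each low Fe sample than in any high Fe sample, by 3.91, 2.19 and 2.74 on the log2 scale (limma adjusted p = 0.0011, 0.0011 and 0.00263). In the limma fit 9 of 9519 tested probe sets passed adjusted p 0.05 on 230A, and 0 of 9163 on 230B. At an unadjusted p under 0.05 there were 640 on 230A and 940 on 230B.

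Atp7a, the exporter, had the clearest difference among the 4 genes. Its brighter probe set on 230B, 1392536_at, had signals of 5098, 7959.3 and 6787.6 in low Fe samples, against 2720.3, 2407.3 and 2274.8 in high Fe samples. Each low Fe sample lay above each high Fe sample, and the lowest of them stood well clear of the highest high Fe value. The group means were 6615 ± 1438 in low Fe and 2467 ± 229 in high Fe (SD, n = 3 each). The log2 difference, low Fe minus high Fe, was 1.40 ± 0.19 (SE), a 2.63-fold higher signal with a 95% interval from 1.94 to 3.57. It did not pass adjustment over 230B (limma adjusted p = 0.143, unadjusted p = 6.24e-05). No 230B probe set had a smaller adjusted p, and by unadjusted p it ranked 4 of 9163. Without any 1 array the log2 difference ran from 1.25 to 1.57, with adjusted p from 0.246 to 0.829. For this and all later differences, the number of cells of a type and the RNA per cell cannot be told apart in a bulk scraping.

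The other probe sets assigned to Atp7a did not show this difference. The second on 230B, 1380395_at, had signals of 596.9, 803.7 and 701.2 in low Fe samples, against 809.4, 658.6 and 684.4 in high Fe samples. The groups overlapped, and the log2 difference was -0.038 ± 0.19, with a 95% interval from -0.46 to 0.39 (limma adjusted p = 0.951). The third, 1369342_at on 230A, was close to the bottom of the scale, at 21.9, 17.1 and 11.8 in low Fe samples and 16.3, 16 and 20.5 in high Fe samples. It fell under the filter on dim probe sets, whose boundary was a mean signal of 109 on 230A, and was not tested.

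The 2 tested Atp7a probe sets were set against each other within each 230B array, which hardly depends on how an array was scaled. The log2 ratio of the brighter over the dimmer was 3.06, 3.28 and 3.25 in low Fe samples, against 1.73, 1.84 and 1.71 in high Fe samples. The ratio was higher in each low Fe sample, by 1.44 on average. The exact two-sided permutation p was 0.1, the smallest that 3 against 3 samples can give, and 0.3 after adjustment over the 3 such ratios computed for Atp7a and Slc31a1. The files do not say where along the transcript each probe set lies. The higher signal for Atp7a thus rests on 1 of the 3 probe sets that carry its name.

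**Figure D1:**
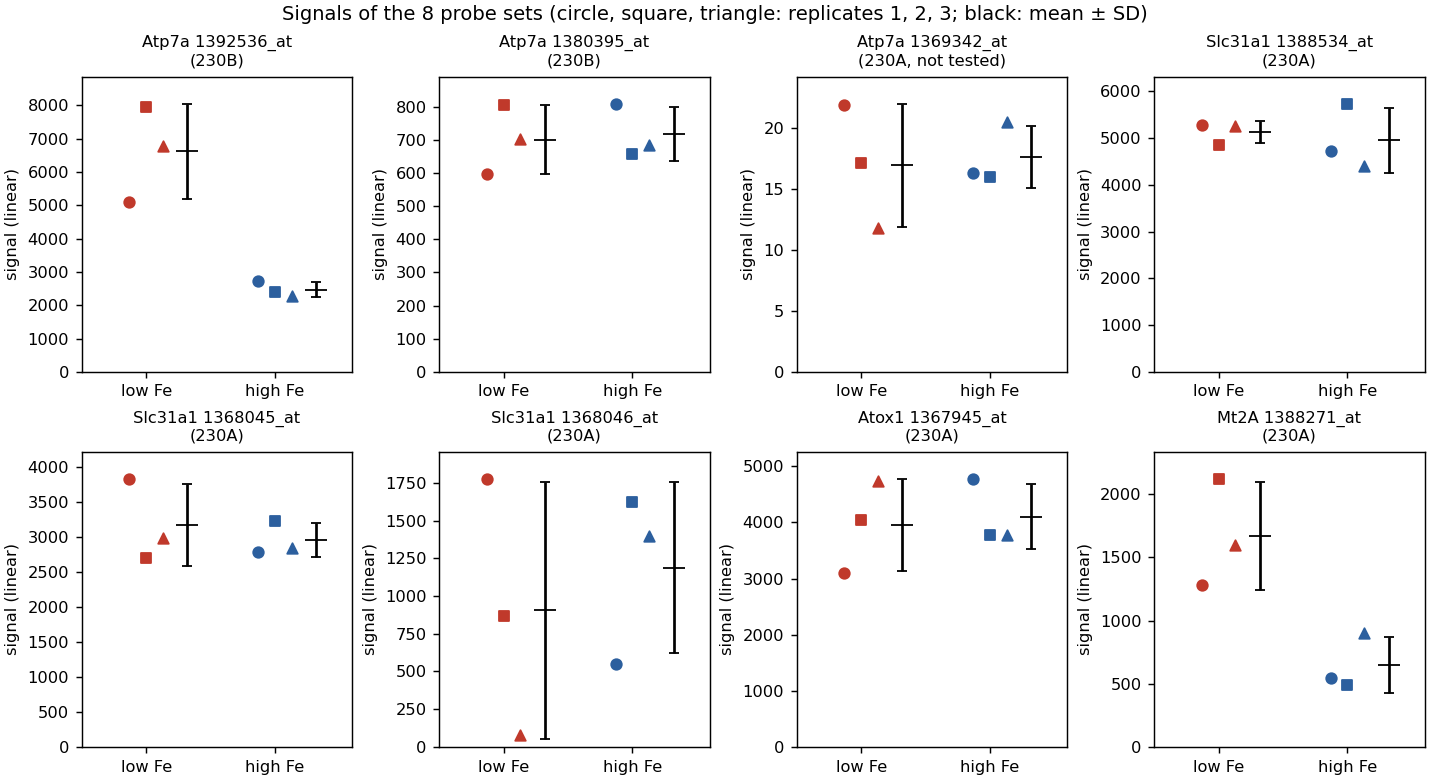
Linear signals of the 8 probe sets of Atp7a, Slc31a1, Atox1 and Mt2A, 1 panel each with its own axis from 0, in low Fe (left, red) and high Fe (right, blue) samples. Circles, squares and triangles are samples 1, 2 and 3, and black marks are the mean ± SD of 3 samples. The groups do not overlap for Atp7a 1392536_at and Mt2A 1388271_at and overlap in the other 6 panels.

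Mt2A, the metallothionein, was higher in low Fe samples by a similar factor. Its probe set 1388271_at on 230A had signals of 1279.5, 2123 and 1598.4 in low Fe samples, against 548.7, 494 and 901.1 in high Fe samples. All 3 low Fe samples lay above all 3 high Fe samples. The means were 1667 ± 426 in low Fe and 648 ± 221 in high Fe (SD, n = 3 each). The log2 difference was 1.36 ± 0.25 (SE), a 2.57-fold higher signal with a 95% interval from 1.72 to 3.83. It did not pass adjustment over 230A (limma adjusted p = 0.199, unadjusted p = 0.000507). By log2 difference it ranked 15 of 9519 tested probe sets, and 0.147% of them had a larger log2 difference.

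The Mt2A difference ran from 1.17 to 1.62 without any 1 array, with adjusted p from 0.0864 to 0.862. After scaling to the spiked hybridization controls it passed, at 1.71 (adjusted p = 0.00873), but that scaling moved the median of all 230A probe sets to 0.33, against -0.015 as deposited. Metallothioneins are close in sequence, and signal at this probe set from other family members was not tested. Mt1, another metallothionein, had a probe set of its own at 25.9, 7.4 and 59.2 in low Fe samples and 10.5, 39.2 and 10.8 in high Fe samples, under the filter. Those Mt1 signals overlapped between the groups. Mt3, a further metallothionein under the filter on 230A, overlapped too. It had 59, 36.5 and 34.8 in low Fe, against 30.5, 34.3 and 42.5 in high Fe samples. Mt4, a metallothionein of stratified epithelia, was also under the filter, with 230.1, 250.7 and 256.1 in low Fe, against 185.5, 53.3 and 100.5 in high Fe samples on 230B. The Mt4 signals did not overlap, and with no filter gave 1.15 ± 0.43 (limma adjusted p = 0.536), a probe set picked out after its values were seen.

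Slc31a1, the importer, did not differ detectably between the groups by its 2 brighter probe sets. The brightest, 1388534_at on 230A, had signals of 5276.4, 4849.6 and 5259.9 in low Fe samples, against 4727.3, 5740 and 4396.6 in high Fe samples. The low Fe values lay inside the range of the high Fe values. The means were 5129 ± 242 in low Fe and 4955 ± 700 in high Fe (SD, n = 3 each). The log2 difference was 0.058 ± 0.13, with a 95% interval from -0.24 to 0.35 (limma adjusted p = 0.938). The interval excludes a rise as large as the 1.40 of Atp7a, although the probe sets come from different array types and the difference between them was not tested.

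The second Slc31a1 probe set, 1368045_at, had signals of 3830, 2693.6 and 2978.6 in low Fe samples and 2784.8, 3226.2 and 2833.2 in high Fe samples. Its highest and its lowest value were both low Fe samples. The log2 difference was 0.090 ± 0.15, with a 95% interval from -0.26 to 0.44 (limma adjusted p = 0.915). The log2 ratio of the brightest over this probe set averaged 0.71 ± 0.21 in low Fe and 0.74 ± 0.10 in high Fe samples (SD, n = 3 each, exact permutation p = 0.9, adjusted 0.9).

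The third Slc31a1 probe set, 1368046_at, varied far more between samples of a group than the other 2. Its signals were 1777.8, 866.4 and 76.1 in low Fe samples, against 548, 1620.6 and 1395.8 in high Fe samples. The log2 difference was -1.05 ± 0.94, with a 95% interval from -3.19 to 1.09 (limma adjusted p = 0.855). Without low Fe replicate 3 it was 0.20 ± 0.47, and without low Fe replicate 1 it was -1.94 ± 0.83. The log2 ratio of the brightest over this probe set was 1.56, 2.46 and 5.84 in low Fe and 3.07, 1.81 and 1.64 in high Fe samples (exact permutation p = 0.7, adjusted 0.9).

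The 3 arrays with the lowest signals of 1368046_at were also the 3 with the lowest 5′ to 3′ ratio of the GAPDH controls, which reports on how intact the RNA and the labelled target were. That ratio was 0.807 in low Fe replicate 2, 0.794 in low Fe replicate 3 and 0.811 in high Fe replicate 1, and from 0.876 to 0.922 on the other 230A arrays. The same ratio of beta-actin was 0.0539 in low Fe replicate 3, where the probe set read 76.1, and from 0.591 to 0.836 on the others. The 2 brighter Slc31a1 probe sets did not fall in this order. The part of RNA quality in the Slc31a1 signals was not tested.

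**Figure D2:**
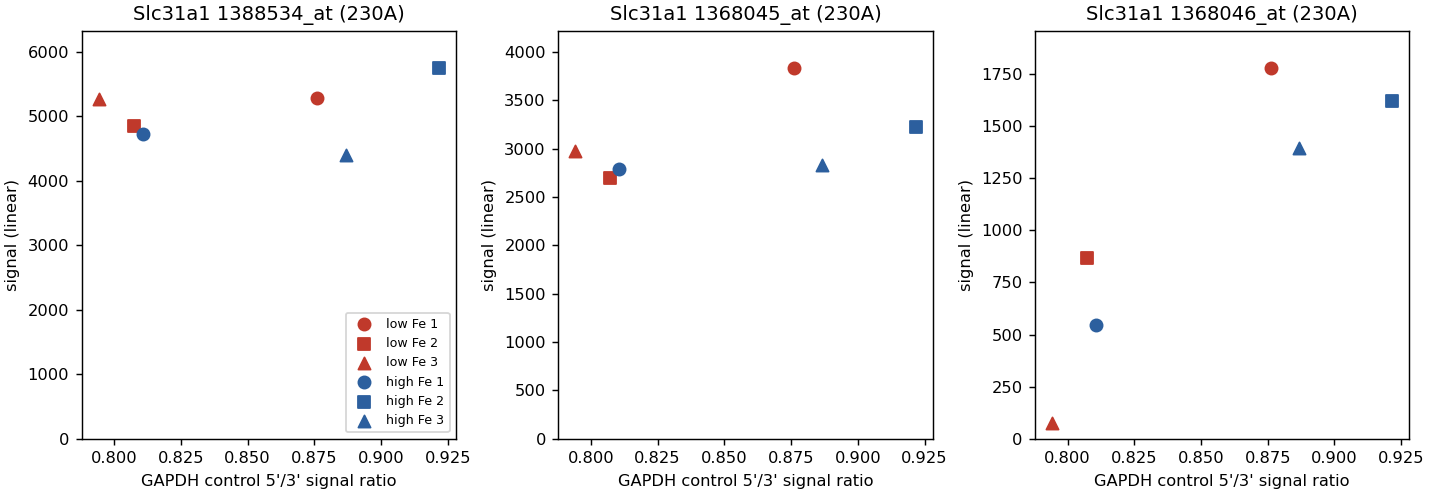
Signals of the 3 Slc31a1 probe sets on 230A (linear, from 0) against the 5′ to 3′ signal ratio of the GAPDH controls on the same array, with low Fe samples in red and high Fe samples in blue. For 1368046_at the 3 arrays with ratios of 0.811 or less read 866.4 or less and the other 3 read 1395.8 or more, while the 2 brighter probe sets show no such step.

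Mt2A was also read within the sets of arrays that the GAPDH ratio forms on 230A, with no test. Its log2 difference was 1.72 among the 3 arrays with lower ratios, 2 low Fe and 1 high Fe, and 0.92 among the 3 with higher ratios, 1 low Fe and 2 high Fe. With these sets as a block it was 1.32 ± 0.27 (limma adjusted p = 0.304). On 230B, which holds the 2 tested Atp7a probe sets, the same 3 samples had the lowest ratios, but the gap between the sets was narrow. Low Fe replicate 3 at 0.873 stood nearer to low Fe replicate 1 at 0.877 than to the other 2. Those were low Fe replicate 2 at 0.821 and high Fe replicate 1 at 0.831. With the 230A sets carried over as a block Atp7a 1392536_at gave 1.27 ± 0.16 (limma adjusted p = 0.236). The beta-actin ratio on 230B was 0.0473 in low Fe replicate 3 and 0.499 in high Fe replicate 1. On the other 230B arrays it ran from 0.640 to 0.896. The part of RNA quality in the differences of Atp7a and Mt2A was not tested.

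Atox1, the chaperone, did not differ detectably between the groups. Its probe set 1367945_at on 230A had signals of 3100.3, 4050.4 and 4731.5 in low Fe samples, against 4773.6, 3768.7 and 3767.6 in high Fe samples. The groups overlapped, with a high Fe sample highest and a low Fe sample lowest. The means were 3961 ± 819 in low Fe and 4103 ± 580 in high Fe (SD, n = 3 each). The log2 difference was -0.063 ± 0.18, with a 95% interval from -0.46 to 0.34 (limma adjusted p = 0.956). Without any 1 array it ran from -0.20 to 0.10.

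Of the 7 tested probe sets, 0 passed adjusted p 0.05, 0 of 5 on 230A and 0 of 2 on 230B. The share over all tested probe sets was 0.0945% on 230A and 0% on 230B. At an unadjusted p under 0.05 there were 2, 1 on each type, where 6.72% of tested probe sets on 230A and 10.3% on 230B reached it, or 3.17% and 4.92% counting only those higher in low Fe. The low Fe samples lay above the high Fe samples without overlap for the same 2, Atp7a 1392536_at and Mt2A, against 5.61% of tested probe sets on 230A and 7.17% on 230B. Counting either direction these shares were 11.7% and 17.5%, and the other 5 member probe sets overlapped.

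**Figure D3:**
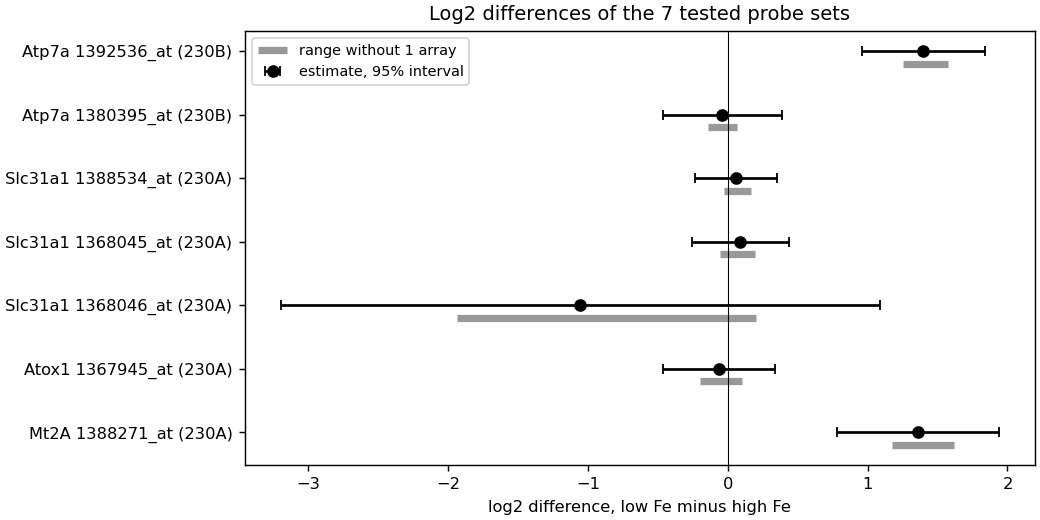
Log2 differences, low Fe minus high Fe, of the 7 tested probe sets, with 95% intervals of the limma fit (black) and the range of the estimate when each array is left out in turn (grey). Atp7a 1392536_at and Mt2A lie near 1.4 with intervals above 0, and the other 5 intervals span 0.

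**Figure D4:**
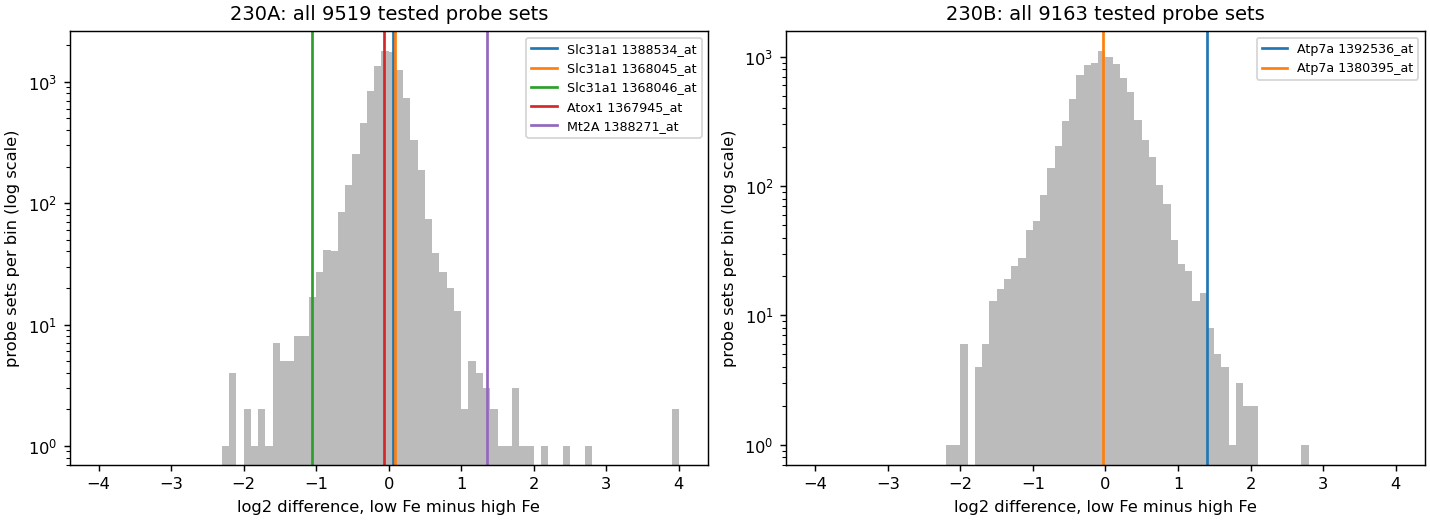
Distribution over all tested probe sets of the log2 difference (low Fe minus high Fe) on 230A (left, 9519) and 230B (right, 9163), in bins on a log count axis, with the tested probe sets of Atp7a, Slc31a1, Atox1 and Mt2A as coloured lines. Mt2A on 230A and Atp7a 1392536_at on 230B lie in the upper tails, where 0.147% and 0.284% of probe sets have a larger difference.

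Genes that deliver copper inside the cell, enzymes that use it with their subunits, and other genes tied to copper did not pass as individual genes. Of 37 genes on this list, 19 were tested on 230A, where 7 lay above 0 and 12 below with a median log2 difference of -0.037, beside -0.0018 over all 7032 tested genes. On 230B 8 were tested, 4 above and 4 below, with a median of -0.011 beside 0.0087 over 4068 genes. With limma 0 passed adjusted p 0.05 on either type, and 1 on each reached an unadjusted p under 0.05, Prnp on 230A and Loxl3 on 230B, near the shares of 6.72% and 10.3% over all tested probe sets.

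Among the other carriers, Atp7b is the copper ATPase that in liver sends copper to bile. Its tested probe set had signals of 316.9, 344.5 and 285.6 in low Fe, against 383.1, 362.6 and 504.4 in high Fe samples. These groups did not overlap, and the log2 difference was -0.37 ± 0.17 (limma adjusted p = 0.751), or -0.032 when scaled to the hybridization controls. A second Atp7b probe set, under the filter, overlapped, with 120.7, 108.5 and 56.9 in low Fe, against 34.4, 138.3 and 135.5 in high Fe samples. Slc31a2, a second Ctr family member, gave 0.025 ± 0.21 on 230B. The copper chaperones Ccs, which loads copper onto superoxide dismutase, and Cox17, which serves cytochrome oxidase, gave -0.0008 ± 0.14 and -0.037 ± 0.14. Sco1, which acts beside Cox17 in mitochondria, gave -0.047 ± 0.24 on 230B, and Commd1, a partner of the copper ATPases, gave 0.087 ± 0.19.

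Heph and Sod1 gave differences as near 0. Heph, the hephaestin that oxidises iron for export, gave 0.075 ± 0.13, and Sod1, the copper-zinc superoxide dismutase, 0.026 ± 0.12. Cp, the plasma ferroxidase ceruloplasmin, was dim, and its 3 probe sets on 230A were not tested. Genes with the smallest p among the rest were Prnp, the copper-binding prion protein (-0.49 ± 0.18), the coagulation factor F5 (-0.41 ± 0.19) and the cytochrome oxidase subunit Cox4i1 (-0.24 ± 0.12) on 230A. On 230B they were Loxl3, a lysyl oxidase family member (1.33 ± 0.52), F8 (0.31 ± 0.19), App (-1.94 ± 1.46) and Cox19 (-0.39 ± 0.39). On 230A App gave -0.0053 ± 0.14 and Cox19 gave 0.15 ± 0.23. The 230B signals of App were 4455.8, 324.2 and 38.4 in low Fe, against 391.2, 4526.7 and 2531.3 in high Fe samples, so that its 3 lowest samples were those with the lowest signals of Slc31a1 1368046_at.

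Of 24 genes of the metallothionein and zinc response list other than Mt2A, 15 were tested on 230A, 7 above 0 and 8 below with a median log2 difference of -0.011. On 230B 6 were tested, 2 above and 4 below, with a median of -0.17. With limma 0 passed on either type, and 3 of 15 on 230A and 1 of 6 on 230B reached an unadjusted p under 0.05, beside 6.72% and 10.3% of all tested probe sets. Slc30a1, the zinc exporter that Mtf1 also controls, had signals of 332.6, 117.4 and 47.7 in low Fe, against 108.2, 194.7 and 323 in high Fe samples (-0.53 ± 0.58). The groups overlapped, and the 3 lowest samples were again low Fe replicates 2 and 3 and high Fe replicate 1.

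Mtf1 itself gave differing readings. Its brightest probe set on 230A had signals of 434.6, 424.6 and 455.7 in low Fe and 484, 297 and 308.7 in high Fe samples, a log2 difference of 0.29 ± 0.19 (limma adjusted p = 0.798). A second on 230A, under the filter, had 28.2, 49.3 and 29.5 in low Fe and 46.7, 57.6 and 24 in high Fe samples, and gave -0.16 ± 0.29 with no filter. Both overlapped between the groups. A probe set on 230B, under the filter boundary there of 199.6, had 206.9, 325.4 and 185.2 in low Fe, against 96.5, 59.1 and 41.8 in high Fe samples. The groups did not overlap at this last probe set. Fitted with no filter it gave 1.66 ± 0.40 (limma adjusted p = 0.469). It was picked out after its values were seen.

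The zinc and glutathione genes of the list split in direction. Gclm, the modifier subunit of the enzyme that starts glutathione synthesis, had signals of 429.7, 410.1 and 452.6 in low Fe, against 661.1, 680.7 and 544.5 in high Fe samples (-0.52 ± 0.14, limma adjusted p = 0.543). Gclc, the catalytic subunit of the same enzyme, had 1327.5, 1326.9 and 1270.1 in low Fe, against 985.6, 796.6 and 1147 in high Fe samples (0.43 ± 0.15, adjusted p = 0.686). The subunits thus stood on opposite sides without overlap in either, though a dimmer Gclc probe set gave 0.10 ± 0.24. Slc39a4, the zinc importer of the intestinal surface, gave -0.40 ± 0.12 (adjusted p = 0.594), with 2839.5, 2772 and 2673 in low Fe, against 4082.8, 3456.4 and 3429.1 in high Fe samples. Slc39a6, another ZIP family zinc transporter, gave 0.46 ± 0.19 on 230B, and -0.85 ± 0.49 by a dimmer probe set. Slc30a4, a vesicle zinc transporter, gave -0.22 ± 0.12 on 230A and 0.45 ± 0.37 on 230B. On 230B Mtf2, also on the list, gave -0.49 ± 0.24. The zinc and iron importer Slc39a14 gave -0.29 ± 0.32 there, with the same 3 samples lowest. Of the other tested Mtf2 probe sets there, 2 lay above 0 (0.14 ± 0.37 and 0.45 ± 0.64) and 1 below (-0.82 ± 0.44), and Slc39a14 gave 0.074 ± 0.12 on 230A.

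**Figure D5:**
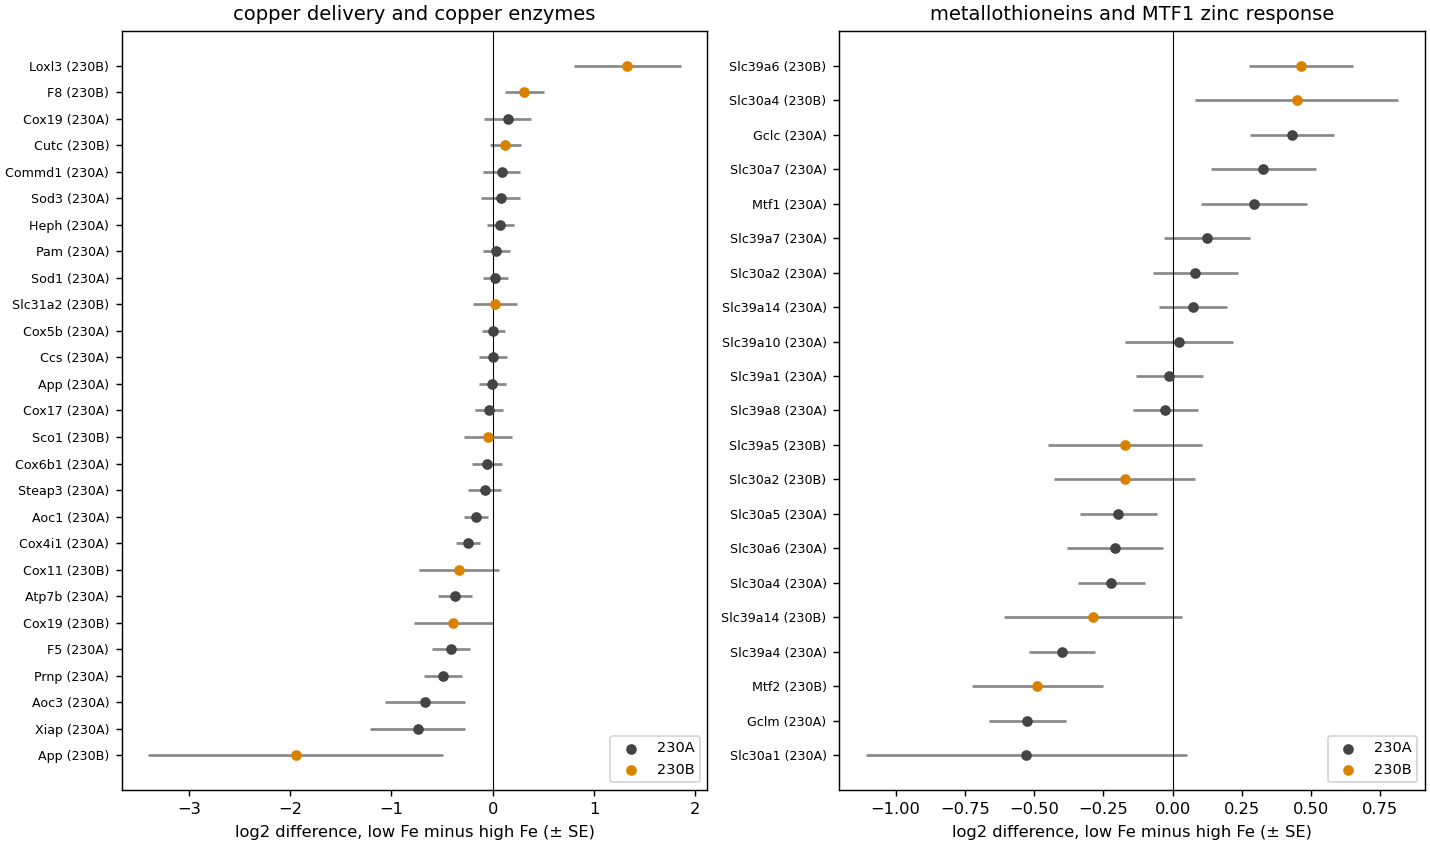
Log2 differences, low Fe minus high Fe, with SE, of the tested genes of the copper delivery and enzyme list (left) and of the metallothionein and zinc response list (right), on 230A in grey and 230B in orange. No gene shown passed adjusted p 0.05. The 230A copper genes lie between -0.74 and 0.15, and those of the zinc list between -0.53 and 0.43.

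Genes with the profile nearest to Atp7a 1392536_at over the 6 arrays of 230B were found by the root mean square difference of centred log2 signals, over 4067 other genes. They were Thoc2 (0.167), of the mRNA export complex, Zfp503 (0.205), Hpdl (0.228) and Itga6 (0.264), the integrin alpha 6 of the epithelial base. The spread of Atp7a about its own mean was 0.727 by the same measure. Thoc2 had signals of 1430, 1751 and 1357.2 in low Fe, against 666.2, 580.6 and 609.1 in high Fe samples. Its log2 difference was 1.26, and ran from 0.54 to 1.45 under 18 alternatives. That of Itga6 was 1.01, and ran from 0.66 to 1.20. In all 4 of these genes the low Fe samples lay above the high Fe samples, which their choice by nearness to 1392536_at all but fixed. Their log2 differences ran from 1.01 to 1.59 and did not pass (limma adjusted p from 0.143 to 0.390).

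Genes nearest to Mt2A over the 6 arrays of 230A, among 7031, were Il33 (0.111), an epithelial alarm cytokine, Smtn (0.162), the smooth muscle protein smoothelin, P4ha1 (0.265), a collagen prolyl hydroxylase subunit, and Mif (0.296), a macrophage cytokine. Mt2A's own spread about its mean was 0.758. Il33 had signals of 309.9, 475.7 and 388.2 in low Fe, against 132.4, 135.3 and 213.8 in high Fe samples, with the same order of samples within the low Fe group as Mt2A. P4ha1 passed (log2 difference 1.19 ± 0.16, limma adjusted p = 0.0406), and the other 3 did not pass. That call was lost in 8 of 18 alternatives: with no filter (adjusted p = 0.125), with either block (0.216 by replicate and 0.0532 by GAPDH set), and without any 1 array but low Fe replicate 1 (from 0.107 to 0.312). Profiles of this kind describe 6 arrays of 2 groups, and a choice by nearness to a probe set with a difference favours genes with that difference.

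Markers of the cells of the gut wall were read beside these results. The summed signal of 9 enterocyte markers on 230A ran from 107058 to 132184 in low Fe and from 100408 to 165933 in high Fe samples. All 9 were bright enough to be tested, and 2 lay above 0 and 7 below, among them the brush border phosphatase Alpi (-0.23 ± 0.18) and the cadherin Cdh17 (-0.23 ± 0.18). Vil1, the villin of the brush border, gave -0.16 ± 0.13 on 230B.

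Summed signals weight each marker by the brightness of its probe set. The 7 smooth muscle markers on 230A summed to between 4438.4 and 5821.8 in low Fe and between 3405.4 and 4092.2 in high Fe samples. Without the brightest, the myosin kinase Mylk (0.43 ± 0.13), the sums overlapped, from 1047.7 to 1808.5 in low Fe and from 902.8 to 1166.3 in high Fe samples. Cnn1 and Tagln were under the filter, and the 5 tested markers lay above 0. Of these Mylk, Smtn (1.11 ± 0.30) and the filament protein Des (0.59 ± 0.22) did not overlap between the groups, and Acta2 (0.29 ± 0.19) and Myh11 (0.56 ± 0.37) did. On 230B the summed signals of 4 such markers overlapped, from 882.1 to 1444 in low Fe and from 918.9 to 1346.1 in high Fe samples.

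The 7 crypt and cycling markers on 230A summed to between 2456.4 and 3834.6 in low Fe and between 1529 and 1741.9 in high Fe samples. Without the brightest, the replication clamp Pcna (0.99 ± 0.17), the sums overlapped, from 539.8 to 1148.6 in low Fe and from 460.8 to 713.3 in high Fe samples. The stem cell markers Lgr5 and Ascl2 and the kinase Cdk1 were under the filter, and the 4 tested ones lay above 0. Pcna and Mki67 (0.76 ± 0.26) did not overlap between the groups, and Top2a (0.51 ± 0.39) and Ccnb1 (0.22 ± 0.22) did.

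The 3 erythroid and blood markers on 230A summed to between 767.4 and 945.5 in low Fe and between 976 and 1293.9 in high Fe samples. Without the brightest, haemoglobin Hbb (-0.54 ± 0.19), the sums overlapped, and the haem enzyme Alas2 gave -0.21 ± 0.21 and the anion exchanger Slc4a1 0.0069 ± 0.19. Of 9 Paneth and goblet markers, Defa5, Mmp7 and Pla2g2a were under the filter, and the sum ran from 43299.7 to 47253 in low Fe and from 38555.3 to 55237 in high Fe samples. Of the 6 tested on 230A, 2 lay above 0, the Paneth defensin Defa24 (0.76 ± 0.47) and lysozyme Lyz2 (0.43 ± 0.25). The other 4 lay below, down to -0.091. On 230B the 3 tested markers lay above 0, from 0.039 to 0.48. Lyz2 is also on the macrophage and leukocyte list. The 9 macrophage and leukocyte markers summed to between 8631.1 and 10168 in low Fe and between 8330.8 and 9444.4 in high Fe samples, with Cd14, Cd3e, Cd68 and Cd79b under the filter. The T cell markers differed in sign, with Cd8a at -0.66 ± 0.19 on 230A and -0.81 ± 0.44 on 230B and Cd3e at 0.17 ± 0.21 on 230B.

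No marker gene named here passed adjusted p 0.05 in limma. Over all tested probe sets 11.7% on 230A did not overlap between the groups in either direction. The part of these markers in the results for Atp7a and Mt2A was not tested.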

How the data were processed

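RNA of 6 jejunal samples was hybridised to 12 arrays, 6 of type 230A and 6 of type 230B. The deposited tables give a linear intensity for each probe set. The sources used here do not name the software. The values show that the authors scaled each array, since the mean signal, trimmed by 2% at both ends, was 500.1 on each 230A and 500.2 on each 230B array (rounded), which hides any shift common to most transcripts. Median signals were 154.5 to 176.2 on 230A arrays and 259.5 to 302.8 on 230B arrays. The small number of arrays limits the precision.

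Groups and replicate numbers were read from the sample titles. Genes were named by the platform annotation, in which 12783 probe sets on 230A and 7564 on 230B have 1 symbol (12748 and 7524 found in RefSeq GRCr8), 312 and 100 have several, and 2771 and 7612 have none. Controls (57 on each type) and the dimmest 40% by mean signal were removed. Low Fe was compared with high Fe by limma 3.58.1 in R 4.3.3, separately for each type, on log2(signal + 16) with a mean-variance trend, Benjamini-Hochberg adjustment and a threshold of 0.05. Adding 16 makes the fold changes of dim probe sets too small. SDs and group means refer to linear signals, and ± after a log2 difference is its SE. Other genes were represented by their brightest probe set. Permutation tests used SciPy 1.17.1. The model was tested on simulated data.

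The members and the gene lists were chosen with earlier results of these data known. The text names all member probe sets, set carriers and enzymes, the 4 genes of smallest p per list and type, the leading 2 of each marker list, and the 4 nearest profiles. The nearest profiles of Slc31a1 and Atox1, which vary little, and some markers on 230B are not named, which was decided after the data were seen. Alternatives were other pseudocounts, filters, scalings and variance models, blocks, each array left out, and a threshold of 0.1. Those of genes outside the 4, and marker sums without their brightest gene, were added after the data were seen.

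Samples with the same replicate number did not deviate together from their group means (correlations of -0.37 to -0.15 on 230A and -0.28 to -0.096 on 230B), so no block was used.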

Additional observations from a re-analysis of the deposited data

How the results depend on the processing

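Atp7a 1392536_at and Mt2A kept their direction under the 19 alternatives with a test, with log2 differences from 0.68 to 1.59 and from 1.17 to 1.71. Atp7a stayed short of adjusted p 0.05 under each in limma (0.0886 to 0.829). Mt2A passed only after scaling to the hybridization controls, in a fit with nearly a common variance (1.71, limma adjusted p = 0.00873). Under the others its limma adjusted p ran from 0.0864 to 0.862. The lowest Atp7a value, 0.68, was the mean of its 2 tested probe sets. Within the arrays with higher GAPDH ratios on 230A the log2 difference was 0.92 for Mt2A. For the same samples on 230B, where the ratio parts them only narrowly, it was 1.12 for Atp7a 1392536_at. With the replicate block the adjusted p was 0.708 for Atp7a and 0.566 for Mt2A, and no call of the 7 probe sets changed.

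Estimates that changed sign were not only those near 0. In the main fit Slc39a6 stood at 0.46 and Slc39a14 at -0.29 on 230B, and Cox4i1 at -0.24 and Slc30a4 at -0.22 on 230A. Slc31a1 1368046_at (-1.05) and Slc30a1 (-0.53) changed sign without low Fe replicate 3. Under a common median Atp7a 1380395_at gave 0.091, Atox1 0.0054, Cox17 0.030, Ccs 0.067 and Sco1 0.085. Under quantile normalization Atp7a 1380395_at gave 0.022. The hybridization controls gave 0.15 for Atp7a 1380395_at, 0.30 for Atox1, 0.12 for Cox4i1, 0.31 for Cox17, 0.36 for Ccs, 0.14 for Sco1 and 0.13 for Slc30a4, while they moved the median of all tested probe sets to 0.33 on 230A and 0.14 on 230B. The mean of all probe sets gave -0.30 for Slc31a1 and -0.19 for Slc39a6. The GAPDH sets as a block gave -0.012 for Sod1, 0.00074 for Sco1 and 0.0087 for Slc39a14.

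Without 1 array the log2 difference ran from -0.14 to 0.070 for Atp7a 1380395_at, from -0.20 to 0.10 for Atox1, and from -0.023 to 0.17, -0.054 to 0.20 and -1.94 to 0.20 for Slc31a1 1388534_at, 1368045_at and 1368046_at. It ran from -0.0013 to 0.17 for Heph, -0.14 to 0.040 for Cox17, -0.041 to 0.11 for Sod1, -0.099 to 0.086 for Ccs, -0.28 to 0.22 for Sco1, -0.064 to 0.12 for Slc31a2 and -1.17 to 0.059 for Slc30a1. The cause was not tested for any of these.

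The count past adjusted p 0.05 on 230A was 33 with the hybridization controls (24 higher and 9 lower in low Fe, against 8 and 1 as deposited), 4 with the replicate block and 15 at a threshold of 0.1. It ran from 5 without low Fe replicate 2 to 21 without low Fe replicate 1. On 230B it was 3 with the hybridization controls and 0 under the other alternatives. The 33 on 230A came from the fit with nearly a common variance described for Mt2A.

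The data used here give no background signal or detection call, so the filter on mean signal stood in for detection. The dim probe sets of Atp7a on 230A, Mt1, Mt3, Mt4 and Mtf1 on 230B are read as values with no call.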
